A study of Mus musculus with 10 samples.

Results

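Genes that mark macrophages and the presentation of antigen by MHC class II molecules were examined in brown adipose tissue (BAT) of mice with and without STAT5 in adipocytes. A list of 38 gene symbols was matched by symbol to the genes of the deposited comparison and joined by Entrez gene identifier to the count tables of 10 libraries. Of the 38 symbols, 37 had a row among the 24454 genes of the count tables, and Lpl2 matched no gene symbol there. Of these 37 genes, 36 were among the 13568 genes that passed the filter on low counts, and Tnf did not pass it. The members were sorted by role into pan-macrophage and myeloid genes, Fc receptors and their adaptors, resident macrophage genes, inflammatory, recruitment and sensing genes, lipid-associated and dendritic genes, and MHC class II genes.

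RNA-Seq had been performed on BAT of control and Stat5Adipoq male mice of strain C57BL/6N, aged 2 months, fed ad libitum and untreated, with 5 libraries of each genotype. Neither labels nor methods state that each library came from a separate mouse. Stat5Adipoq mice carried floxed Stat5 alleles and the Adipoq-Cre transgene, which is active in adipocytes of brown and white fat and not in macrophages. The methods describe controls as floxed littermates lacking the transgene, while the labels call them wild type. The libraries hold RNA of the whole tissue, so fewer macrophages and less RNA per macrophage cannot be told apart.

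Adipose tissue macrophages derive from embryonic precursors and from blood monocytes, and depend on CSF1 receptor signalling. Resident macrophages of healthy fat carry scavenger and lectin receptors and clear dying cells and lipid, whereas monocytes enter inflamed fat through the chemokine receptor CCR2. MHC class II molecules are pairs of an α and a β chain. The invariant chain CD74 guides them to endosomes, where cathepsins trim it and peptides are loaded. Their genes are switched on by the coactivator CIITA, which is held at the promoter by factors bound to an X box and a Y box.

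The promoters of the α chain gene H2-Aa and the β chain gene H2-Eb1 are shown because these are the class II chain genes of the list with an entry in the table of promoters used (RefSeq, GRCm38.p6). The promoter of Fcgr1 is shown because it was the only one of the 27 members with an entry to hold the STAT5 core letters. Each run gives the 250 bases before the start site, 5′ to 3′ on the strand of the gene. H2-Aa lies on the minus strand (chr17:34287824-34288073), H2-Eb1 on the plus strand (chr17:34305617-34305866) and Fcgr1 on the minus strand (chr3:96293970-96294219). Capitals mark the X box letters GCAAC and the Y box letters CCAAT or ATTGG in the class II promoters, and TTCNNNGAA in Fcgr1. The CCAAT at base -35 of H2-Eb1 is a match of letters only and lies outside the pair of GCAAC and ATTGG described below.
H2-Aa: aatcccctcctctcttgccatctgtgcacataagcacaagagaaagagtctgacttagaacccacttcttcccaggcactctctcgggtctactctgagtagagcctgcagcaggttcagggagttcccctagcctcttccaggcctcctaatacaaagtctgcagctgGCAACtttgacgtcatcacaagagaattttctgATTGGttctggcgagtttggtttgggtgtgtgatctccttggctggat
H2-Eb1: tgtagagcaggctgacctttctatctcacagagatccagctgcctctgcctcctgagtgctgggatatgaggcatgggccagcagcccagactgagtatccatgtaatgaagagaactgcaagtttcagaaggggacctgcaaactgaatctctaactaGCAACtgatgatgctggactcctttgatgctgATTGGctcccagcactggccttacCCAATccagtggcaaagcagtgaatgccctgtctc
Fcgr1: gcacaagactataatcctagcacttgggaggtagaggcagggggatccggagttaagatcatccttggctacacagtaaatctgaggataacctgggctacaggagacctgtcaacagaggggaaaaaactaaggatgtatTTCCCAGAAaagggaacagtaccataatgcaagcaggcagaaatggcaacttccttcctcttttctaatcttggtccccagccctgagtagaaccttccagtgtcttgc

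Motifs were searched on both strands of windows from 250 bases before to 50 bases after each start site. In H2-Aa, GCAAC began at base -81 and ATTGG at base -48 relative to the start site, with 28 bases between them. In H2-Eb1 the same letters began at bases -91 and -59, with 27 bases between them. The spacing of these motifs was therefore nearly the same in the α and β chain genes. GCAAC followed by ATTGG after 25 to 30 bases, a search chosen after these sequences had been seen, was present in 93 of all 32851 windows (0.283%). Of 22 genes from the lists of MHC class II genes that had a window, 5 held it, namely H2-Aa, H2-Eb1, H2-Eb2, H2-Oa and H2-Ob. CCAAT on either strand, a search that also takes the ATTGG of these pairs, was in 37.4% of all windows and in those of 11 of the 27 members. TTCNNNGAA was in 8.3% of all windows and, among members, in that of Fcgr1 only, where it began at base -109. GAGGAAGT, the core of sites for the myeloid factor PU.1, was in 3.2% of all windows and, among members, in that of Ctss only. These matches describe letters in the windows and do not show binding.

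Levels are in CPM, the counts of a gene relative to the total of its library, scaled between libraries by the TMM method. Fold changes are log2 values of Stat5Adipoq over control from edgeR's quasi-likelihood test, and adjusted p-values are Benjamini-Hochberg values over the 13568 genes with a threshold of 0.05. Limits in brackets are 95% confidence limits. Total counts ranged from 8.49 to 19.51 M in control and from 9.4 to 15.69 M in Stat5Adipoq libraries, control replicate 4 being the deepest and control replicate 3 the shallowest. The deletion was checked first. Stat5a was 86.9 to 130.4 CPM in control and 15.8 to 20.7 CPM in Stat5Adipoq BAT, a log2 fold change of -2.62 (adjusted p = 2e-07). Stat5b was 76.6 to 91.9 and 21.0 to 22.9 CPM, a log2 fold change of -1.94 (adjusted p = 3.9e-09), and neither gene overlapped between the genotypes. Ucp1, the uncoupling protein that defines brown adipocytes, was 5402.2 to 13831 CPM in control and 7843.3 to 12660.5 CPM in Stat5Adipoq libraries.

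None of the listed macrophage and MHC class II genes passed the threshold for a difference between the genotypes. In edgeR 0 of the 36 tested members were called, where 2.71% of all genes were called, 1.4% higher and 1.31% lower in Stat5Adipoq BAT. DESeq2 called none of them (4.99% of all genes), although it gave no adjusted p-value for Il1b and Trem2, and limma-voom called none (2.84% of all genes). At an unadjusted p-value below 0.05, 1 of the 36 was found, against 15.2% of all genes. This was Cd14, which also had the smallest adjusted p of the members (0.26). The values of control and Stat5Adipoq libraries overlapped for all 36 members, whereas they did not overlap for 4.39% of all genes. Fold changes below 0 were found for 27 of the 36 members, against 50.8% of all genes, and the median log2 fold change was -0.11 against -0.003 for all genes. The 37 genes together held 0.0474% to 0.0638% of the counts of a control library and 0.0434% to 0.0541% of a Stat5Adipoq library, ranges that overlapped.

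**Figure D1:**
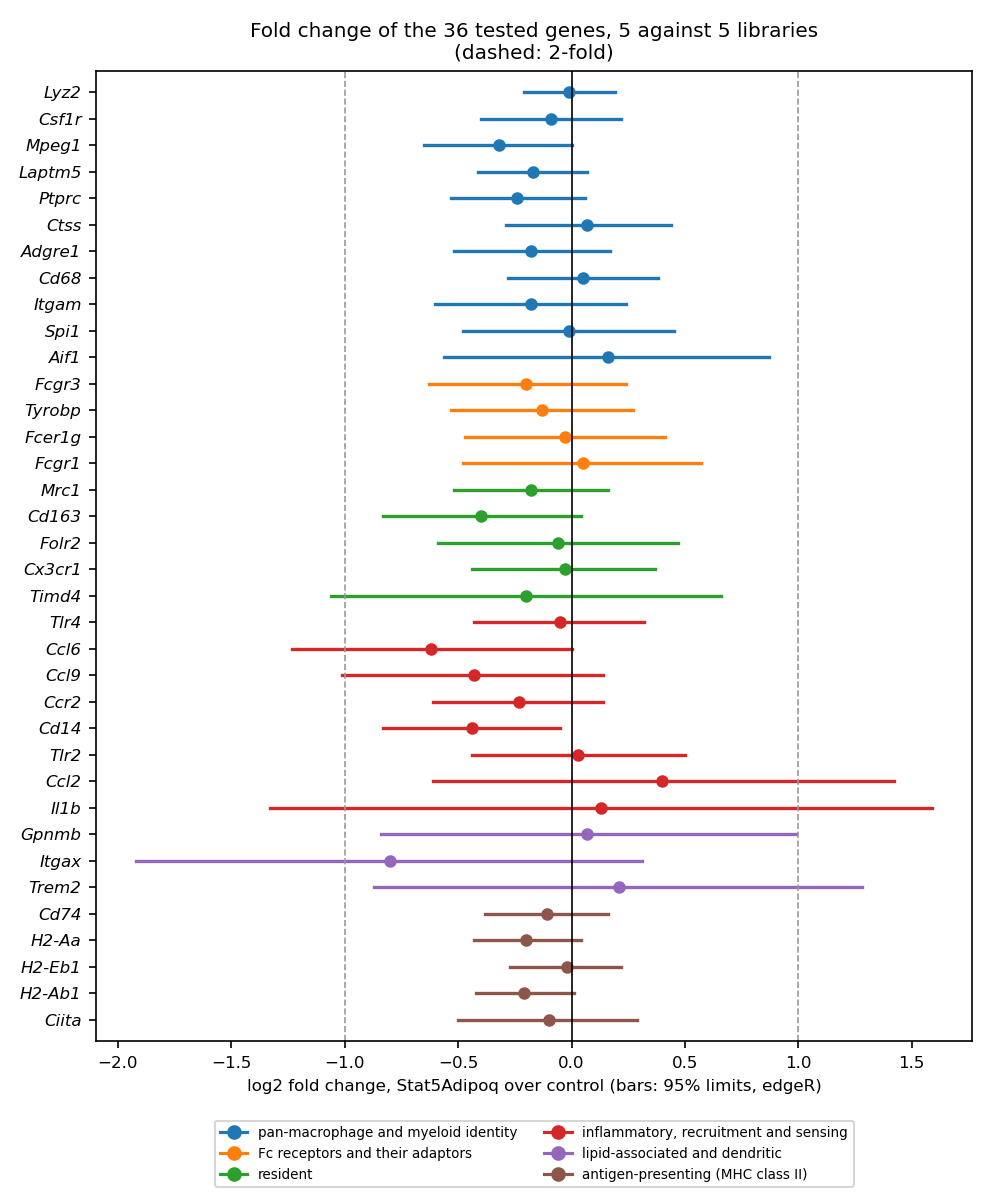
Log2 fold change of each tested member, Stat5Adipoq over control, with 95% limits from edgeR (5 libraries per genotype); colours give the class and dashed lines mark 2-fold. The limits of 35 members include 0, and those of Cd14 lie below it.

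The number of members below 0 moved with the libraries included. It was highest without control replicate 2, with 30 of 35 tested members (85.7%). Without control replicate 4, 21 of 34 tested members lay below 0, and without Stat5Adipoq replicate 3, 21 of 35 did. Without both of the last-named libraries, which were picked with their values known so that the share had to fall, 16 of 34 (47.1%) lay below 0, against 50.9% of all genes in the same fit. Control replicate 4 held the highest value of 12 members and control replicate 1 that of 10. Stat5Adipoq replicate 3 held the lowest value of 14 members and control replicate 3 that of 9.

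The precision of the fold changes differed between members. The 95% limits stayed within 2-fold in either direction for 29 of the 36 members and within 1.5-fold for 20. The 7 members whose limits reached 2-fold were Timd4, Ccl2, Ccl6, Ccl9, Il1b, Itgax and Trem2, of which 5 averaged under 20 counts per library. For these genes a 2-fold difference in at least 1 direction lay inside the limits.

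**Figure D2:**
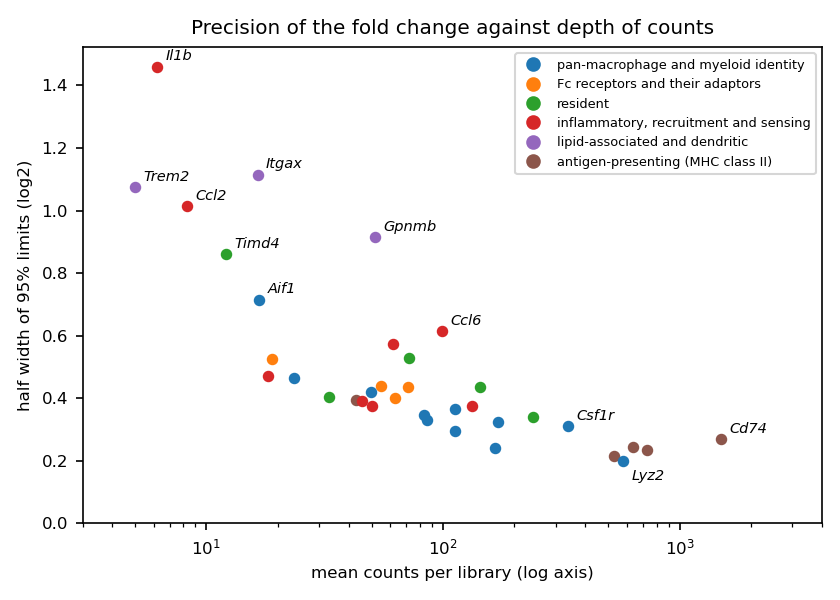
Width of the 95% limits to one side of the log2 fold change against the mean counts per library (log axis), 1 point for each of the 36 tested members, coloured by class. Lyz2 and Cd74 have narrow limits on many counts, while Il1b, Itgax, Trem2 and Ccl2 have the widest limits on few counts.

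Per kb of transcript, the MHC class II chain genes and their chaperone were the most abundant members together with lysozyme. In control BAT the mean level was 89.4 CPM per kb for Cd74, 56.1 for H2-Aa, 38.2 for H2-Ab1, 35.9 for Lyz2 and 31.7 for H2-Eb1. The next member, Tyrobp, had 9.28 CPM per kb. Ciita was expressed at 0.604 CPM per kb, and the lowest members were Trem2 (0.348), Il1b (0.318) and Tnf (0.231). The same 5 genes led in Stat5Adipoq BAT, with 82.9 CPM per kb for Cd74, 49.0 for H2-Aa, 35.7 for Lyz2, 33.1 for H2-Ab1 and 31.2 for H2-Eb1, so Lyz2 and H2-Ab1 changed places.

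**Figure D3:**
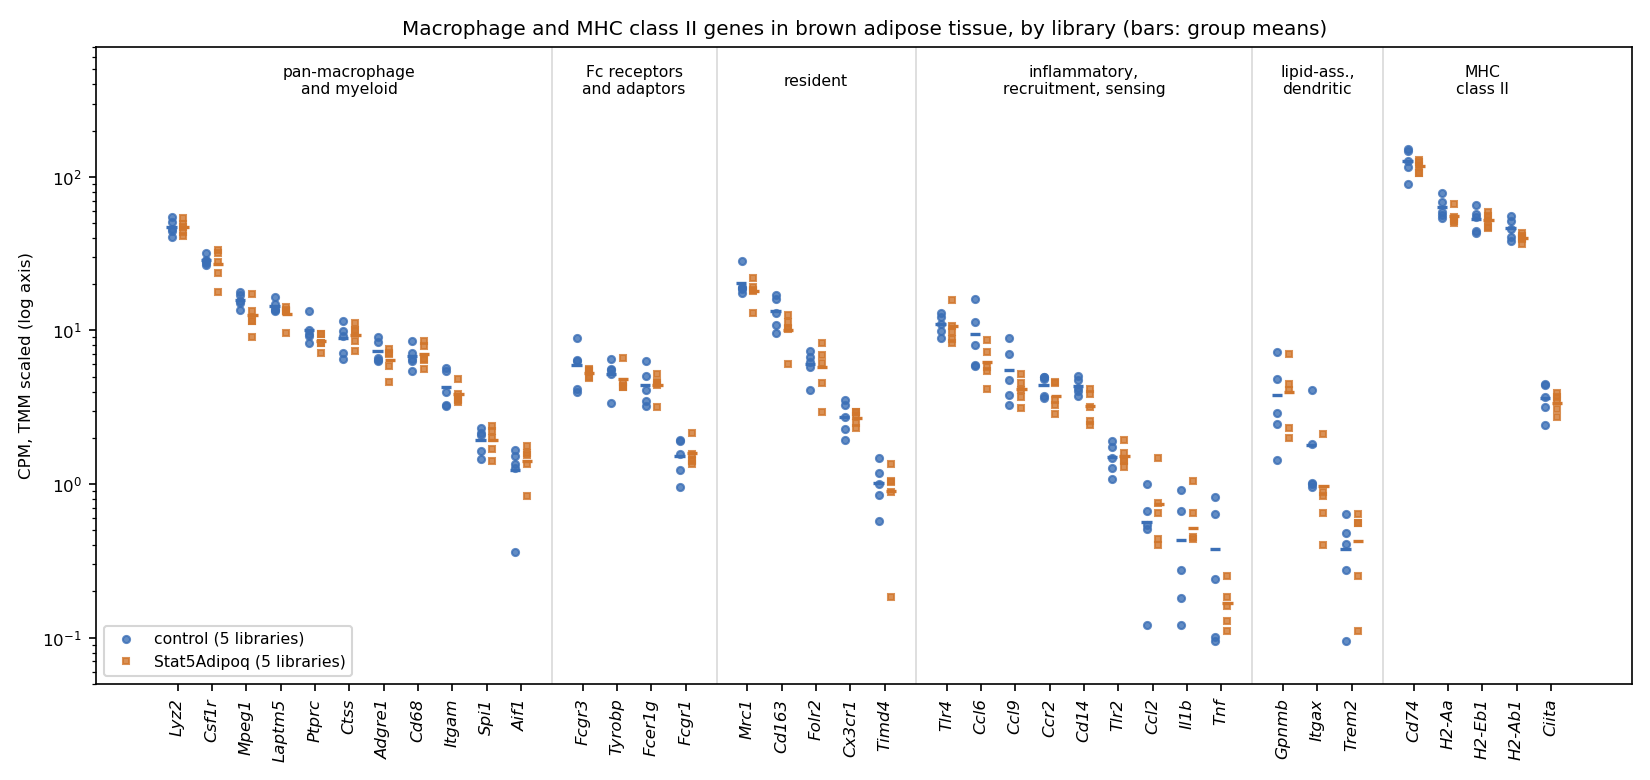
CPM of each member with a row in the count tables in each library (log axis), grouped by class; circles are control and squares Stat5Adipoq libraries, and bars give group means. Points of both genotypes overlap for every tested member; a value of 0 (Il1b, Stat5Adipoq replicate 1) cannot be drawn on this axis.

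MHC class II genes were slightly lower on average in Stat5Adipoq BAT, within the spread of the libraries. All 5 fold changes were below 0, with a median of -0.11, and none passed the threshold. The median was -0.04, with 4 of 5 below 0, without control replicate 1, and -0.21 without control replicate 3. H2-Aa, which encodes the α chain of I-A, was 78.2, 59.3, 53.8, 68.5 and 56.7 CPM in control replicates 1 to 5 and 53.2, 66.4, 51.4, 50.2 and 55.0 CPM in Stat5Adipoq replicates 1 to 5. Control replicates 1 and 4 lay above all Stat5Adipoq libraries, and the other 3 controls lay among them. Its log2 fold change was -0.20 (-0.43 to 0.04, adjusted p = 0.43). H2-Ab1, the β chain of I-A, was 55.7, 45.4, 38.0, 51.6 and 40.7 CPM in control and 41.2, 43.3, 36.7, 40.0 and 39.4 CPM in Stat5Adipoq libraries. Here 3 controls exceeded every Stat5Adipoq library, and control replicates 3 and 5 did not. Its log2 fold change was -0.21 (-0.42 to 0.01, adjusted p = 0.34). H2-Eb1, the β chain of I-E, was 65.5, 44.7, 54.4, 57.2 and 43.2 CPM in control and 46.4, 55.9, 47.0, 52.3 and 58.8 CPM in Stat5Adipoq libraries, with a log2 fold change of -0.02 (-0.27 to 0.22). The lowest and the highest H2-Eb1 values were both controls.

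Cd74, the invariant chain, was 150.8, 115.6, 90.3, 147.0 and 126.5 CPM in control and 106.6, 129.6, 106.3, 124.5 and 117.3 CPM in Stat5Adipoq BAT. The Stat5Adipoq libraries all lay inside the range of the controls (log2 fold change -0.11, -0.38 to 0.16, adjusted p = 0.74). Ciita, the class II coactivator, was 4.4, 3.18, 2.41, 3.69 and 4.48 CPM in control and 3.1, 3.46, 3.69, 2.75 and 3.91 CPM in Stat5Adipoq libraries (log2 fold change -0.10, -0.50 to 0.29, adjusted p = 0.86). Its Stat5Adipoq values again fell within the control range. The 3 chain genes and Cd74 were highest in control replicate 1. Ciita was highest in control replicate 5. The chain genes lie close together on chromosome 17 of GRCm38 (H2-Ab1 from 34263227 to 34269418, H2-Aa from 34282744 to 34287823 and H2-Eb1 from 34305867 to 34316674).

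Genes that act with MHC class II, in peptide loading, transcription, interferon γ sensing and costimulation, were given by a separate list of 24 symbols, of which 20 were tested. None was called by edgeR or limma-voom, DESeq2 called 1, and 3 had an unadjusted p-value below 0.05 in edgeR. Of all genes, DESeq2 called 4.99%, and 15.2% had an unadjusted p-value below 0.05 in edgeR, so the list was near these shares. The median log2 fold change over the list was -0.07. The gene called by DESeq2 was Ifi30, a lysosomal thiol reductase that unfolds antigens, at 14.3 ± 1.82 CPM in control and 11 ± 0.849 CPM in Stat5Adipoq BAT (SD, n = 5 each). Its log2 fold change was -0.37 (standard error 0.10), with an adjusted p of 0.089 in edgeR and 0.047 in DESeq2. H2-DMb2, a β chain of the peptide-loading molecule H2-DM, was 1.05, 0.726, 0.12, 1.31 and 1.19 CPM in control and 0.419, 0.385, 0.277, 0.33 and 0.0799 CPM in Stat5Adipoq libraries. Apart from control replicate 3, the lowest but 1 of all libraries, the controls lay above every Stat5Adipoq library. Its log2 fold change was -1.58 (-2.68 to -0.48, adjusted p = 0.14) on a mean of 7.7 counts, and without control replicate 3 it was -1.83 (adjusted p = 0.021), the adjusted p over all alternatives running from 0.021 to 0.41. Reads of H2-DMb2 may be shared with its paralog H2-DMb1, so its counts are uncertain. Ctsl, a cathepsin that trims the invariant chain, was 134.3 to 158.9 CPM in control and 122.9 to 129.9 CPM in Stat5Adipoq libraries. These ranges did not overlap, which was so for 4.39% of all genes, and the fold change was small (log2 -0.18, standard error 0.06, adjusted p = 0.16). Lgmn, another lysosomal protease, was 63.8 ± 9.16 and 68.3 ± 5.59 CPM (SD, n = 5 each), and Ifngr1, the binding chain of the interferon γ receptor, was 81.2 ± 5.73 and 74.9 ± 7.90 CPM (SD, n = 5 each), with adjusted p-values of 0.69 and 0.53. H2-Oa, H2-Eb2 and Cd80 were under the filter.

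Pan-macrophage and myeloid genes had small fold changes on both sides of 0, and none was called. Of the 11 genes, 8 had fold changes below 0, with a median of -0.09 and a range of -0.32 to 0.16. Adgre1, which encodes the macrophage surface marker F4/80, was 9.0, 6.35, 6.37, 6.57 and 8.41 CPM in control and 7.04, 7.18, 4.62, 5.84 and 7.59 CPM in Stat5Adipoq libraries (log2 fold change -0.18, -0.52 to 0.17, adjusted p = 0.67). The highest values were controls 1 and 5 and the lowest was Stat5Adipoq replicate 3, with the rest intermixed. Cd68, a protein of macrophage lysosomes, was 6.78 ± 1.15 and 7.01 ± 1.21 CPM (SD, n = 5 each; log2 fold change 0.05). Lyz2, lysozyme M, was 40.8 to 54.6 CPM in control and 41.4 to 53.7 CPM in Stat5Adipoq BAT, which gave the narrowest limits of the class (log2 fold change -0.01, -0.21 to 0.19). Thus F4/80, CD68 and lysozyme transcripts each differed by less than their spread between libraries.

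Csf1r, the receptor on which macrophages depend, was 27.4, 28.1, 28.9, 31.7 and 26.7 CPM in control and 33.2, 23.7, 17.7, 27.9 and 31.8 CPM in Stat5Adipoq libraries. The controls lay close together, while the Stat5Adipoq values spread to both sides of them (log2 fold change -0.09, -0.40 to 0.22, adjusted p = 0.83). Mpeg1, the pore-forming protein perforin-2, was 13.5 to 17.7 CPM in control and 9.05 to 17.2 CPM in Stat5Adipoq BAT, and its log2 fold change of -0.32 (-0.65 to 0.00, adjusted p = 0.34) was the lowest of the class. Ptprc, the pan-leukocyte antigen CD45, was 8.22 to 13.3 and 7.11 to 9.51 CPM (log2 fold change -0.24, -0.53 to 0.06). Laptm5, a lysosomal membrane protein of blood cells, was 13.3 to 16.5 and 9.69 to 14.1 CPM (log2 fold change -0.17, -0.41 to 0.07). For Adgre1, Csf1r, Mpeg1, Ptprc and Laptm5 the lowest of the 10 values was that of Stat5Adipoq replicate 3. The protease gene Ctss had a log2 fold change of 0.07 (-0.29 to 0.44) and the integrin gene Itgam one of -0.18 (-0.60 to 0.24). Spi1, which encodes the transcription factor PU.1, had a value of -0.01 (-0.48 to 0.45), and Aif1, the calcium-binding protein IBA1, one of 0.16 (-0.56 to 0.87) on a mean of 16.7 counts per library.

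Some of these counts are uncertain. For Itgam, 72.4% of the 50-base words of its longest protein-coding transcript linked to a RefSeq mRNA occur in other genes. Of its exon bases, 68.7% are also exon of another gene read in the same direction. The shared share of words was 15.4% for Lyz2, 12.8% for Fcgr3 and 9.6% for Itgax. Antisense exons overlap 63.1% of the exonic sequence of Folr2 and 15.1% of that of Csf1r, and the strand setting of the counting is not given in the sources used here.

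Among Fc receptors and their signalling adaptors no gene was called. Fcgr1, the high-affinity IgG receptor, was 1.52 ± 0.417 CPM in control and 1.58 ± 0.332 CPM in Stat5Adipoq BAT (SD, n = 5 each; log2 fold change 0.05, -0.48 to 0.57). Fcgr3, a low-affinity IgG receptor, was 3.97 to 8.95 CPM in control and 4.89 to 5.58 CPM in Stat5Adipoq libraries (log2 fold change -0.20, -0.63 to 0.24). All Stat5Adipoq values of Fcgr3 lay inside the control range. The adaptors Fcer1g and Tyrobp, which carry the signalling motifs for Fc receptors and for TREM2, had log2 fold changes of -0.03 (-0.47 to 0.41) and -0.13 (-0.53 to 0.27). The coefficient of variation between controls was 22.1% to 34% in this class.

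For resident macrophage genes Stat5Adipoq replicate 3 held the lowest value of 4 of 5 genes, Cx3cr1 being the exception, and none was called. All 5 fold changes were below 0 (median -0.18), and leaving out that library left 3 of 5 below 0 (median -0.07). Mrc1, the mannose receptor CD206, was 18.8, 17.4, 18.6, 28.1 and 19.1 CPM in control and 22.0, 18.3, 12.9, 18 and 19.3 CPM in Stat5Adipoq BAT. Control replicate 4 stood above and Stat5Adipoq replicate 3 below the other 8 libraries (log2 fold change -0.18, -0.52 to 0.16, adjusted p = 0.65). Cd163, the haemoglobin scavenger receptor, was 9.67, 12.9, 17, 16.1 and 10.8 CPM in control and 10.3, 10.2, 6.0, 11.3 and 12.6 CPM in Stat5Adipoq libraries. Control replicates 2, 3 and 4 exceeded all Stat5Adipoq values, and the other 2 controls did not (log2 fold change -0.40, -0.83 to 0.04, adjusted p = 0.38).

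Timd4, a receptor for phosphatidylserine on dying cells, was 0.574, 1.18, 0.842, 1.47 and 1.0 CPM in control and 1.34, 1.03, 0.185, 0.881 and 1.04 CPM in Stat5Adipoq BAT, on a mean of 12.1 counts per library. Apart from Stat5Adipoq replicate 3, which held 2 counts, the genotypes covered nearly the same range (log2 fold change -0.20, -1.06 to 0.66). Folr2, folate receptor β, was 4.12 to 7.34 CPM in control and 2.95 to 8.22 CPM in Stat5Adipoq libraries (log2 fold change -0.06, -0.59 to 0.47). Cx3cr1, the fractalkine receptor, was 1.92 to 3.54 and 2.31 to 2.95 CPM (log2 fold change -0.03, -0.44 to 0.37). Its Stat5Adipoq values all lay inside the control range.

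A further list of 19 resident macrophage genes, including the complement C1q chains, Lyve1 and F13a1, had 16 tested genes, all with fold changes below 0 (median -0.17). None was called by edgeR, DESeq2 or limma-voom, and 1 of the 16 had an unadjusted p-value below 0.05, against 15.2% of all genes. Between 12 and 16 of these 16 genes lay below 0 when 1 library was left out. When control replicate 4 and Stat5Adipoq replicate 3 were both left out, 11 did. The 3 most abundant were Stab1, a scavenger receptor, at 54.9 ± 4.96 and 55.0 ± 3.92 CPM, Gas6, the ligand of the efferocytosis receptor MERTK, at 37.9 ± 8.05 and 35.5 ± 6.59 CPM, and C1qb, a chain of complement C1q, at 23.4 ± 4.15 and 20.6 ± 2.43 CPM in control and Stat5Adipoq BAT (SD, n = 5 each).

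Among inflammatory, recruitment and sensing genes none was called. Their coefficient of variation between controls ranged from 12.6% to 79.5% for the tested genes and was 87.2% for Tnf. Cd14, the lipopolysaccharide co-receptor, was 5.07, 3.72, 4.21, 4.75 and 4.02 CPM in control and 3.86, 2.44, 4.15, 3.19 and 2.56 CPM in Stat5Adipoq libraries. Stat5Adipoq replicates 2, 4 and 5 lay below every control and the others fell among the controls. Its log2 fold change was -0.44 (-0.83 to -0.05), with an adjusted p of 0.26 and an exact two-sided permutation test p of 0.048 for 5 against 5 libraries. It was the 1 member with a permutation p below 0.05. Tlr2 and Tlr4, Toll-like receptors for lipoproteins and lipopolysaccharide, had log2 fold changes of 0.03 (-0.44 to 0.50) and -0.05 (-0.43 to 0.32). Tlr4 was the more abundant, at 11 ± 1.64 CPM in control and 10.7 ± 2.96 CPM in Stat5Adipoq BAT (SD, n = 5 each).

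The chemokine gene Ccl6 was 5.94, 8.08, 11.3, 15.9 and 5.85 CPM in control and 7.21, 5.45, 4.15, 8.7 and 5.75 CPM in Stat5Adipoq BAT. Control replicates 3 and 4 stood above the other 8 libraries, for which the genotypes were intermixed (log2 fold change -0.62, -1.23 to 0.00, adjusted p = 0.33). Ccl9, its neighbour on chromosome 11, was 3.26, 3.81, 6.98, 8.95 and 4.75 CPM in control and 3.69, 5.19, 3.14, 4.08 and 4.55 CPM in Stat5Adipoq libraries (log2 fold change -0.43, -1.01 to 0.14), with the same 2 controls highest. Ccr2, the receptor by which monocytes enter tissue, was 3.65 to 5.0 CPM in control and 2.86 to 4.61 CPM in Stat5Adipoq libraries (log2 fold change -0.23, -0.61 to 0.14). Ccl2, the ligand of CCR2, was 0.12 to 1.0 and 0.399 to 1.47 CPM (log2 fold change 0.40, -0.61 to 1.42) on a mean of 8.3 counts.

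The cytokine genes Il1b and Tnf had few counts. Il1b was 0.67, 0.182, 0.12, 0.91 and 0.274 CPM in control and 0.0, 0.449, 0.646, 0.441 and 1.04 CPM in Stat5Adipoq libraries, with 0 to 18 counts per library (log2 fold change 0.13, -1.33 to 1.59). Tnf had 1 to 9 counts per library, at 0.0957, 0.817, 0.241, 0.101 and 0.64 CPM in control and 0.252, 0.128, 0.185, 0.11 and 0.16 CPM in Stat5Adipoq libraries, and was not tested. Control replicates 2 and 5 held the highest Tnf values, and control replicate 1 the lowest.

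A list of 22 further inflammatory mediators had 11 tested genes, of which none was called by edgeR, DESeq2 or limma-voom (median log2 fold change -0.09). In edgeR 1 of the 11 had an unadjusted p-value below 0.05, against 15.2% of all genes. Il6, Il1a, Il10, Arg1 and 7 others were under the filter. The most abundant were Nfkbia, the NF-κB inhibitor, at 36 ± 6.70 and 33.9 ± 7.70 CPM, Nos2, the inducible nitric oxide synthase, at 10.9 ± 2.62 and 11.5 ± 2.84 CPM, and Tnfaip3, another inhibitor of NF-κB, at 4.19 ± 1.93 and 4.49 ± 1.59 CPM in control and Stat5Adipoq BAT (SD, n = 5 each).

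Lipid-associated and dendritic members were few and variable, with a coefficient of variation between controls of 54.2% to 75.9%, and none was called. Itgax, the integrin CD11c of dendritic cells and of macrophages in obese fat, was 4.12, 0.998, 0.962, 1.01 and 1.83 CPM in control and 0.838, 2.12, 0.646, 0.881 and 0.399 CPM in Stat5Adipoq libraries. Control replicate 1 and Stat5Adipoq replicate 2 stood above the rest of their groups (log2 fold change -0.80, -1.92 to 0.31, adjusted p = 0.51). Over alternatives that left out libraries, the Itgax fold change ranged from -1.36 to -0.25. Gpnmb, a glycoprotein of lipid-laden macrophages, was 1.44 to 7.23 CPM in control and 1.98 to 7.05 CPM in Stat5Adipoq BAT (log2 fold change 0.07, -0.84 to 0.99). Trem2, a lipid-sensing receptor that signals through TYROBP, was 0.0957 to 0.635 and 0.11 to 0.641 CPM, with a mean of 5.0 counts (log2 fold change 0.21, -0.87 to 1.28).

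Among 17 further lipid-associated macrophage genes, 16 were tested, 1 was called by edgeR and by limma-voom, and 2 by DESeq2. The shares of all genes called were 2.71% in edgeR, 2.84% in limma-voom and 4.99% in DESeq2. Lgals3, which encodes galectin-3, a lectin abundant in macrophages, fell from 6.43 ± 0.825 CPM in control to 3.96 ± 0.644 CPM in Stat5Adipoq BAT (SD, n = 5 each), -0.69 on the log2 scale (adjusted p = 0.027). All Stat5Adipoq values, 3.28 to 4.62 CPM, lay below all controls, 5.3 to 7.34 CPM. The call of Lgals3 was lost in edgeR when control replicate 1, 2 or 4 or Stat5Adipoq replicate 3, 4 or 5 was left out (adjusted p 0.054 to 0.073). With 1 library left out its log2 fold change stayed between -0.75 and -0.63, and over all alternatives its adjusted p ran from 0.0039 to 0.14. Cd63, a tetraspanin of lysosomes, was 10.8 ± 1.03 and 8.10 ± 1.08 CPM (SD, n = 5 each), with an adjusted p of 0.074 in edgeR and 0.039 in DESeq2. Which cells of the tissue the RNA of Lgals3 and Cd63 came from was not tested. The 3 most abundant genes of the list, Fabp4, Cd36 and Ctsd, are also expressed by brown adipocytes. Fabp4 was at 8560.2 ± 800.5 and 7680.6 ± 644.0 CPM, Cd36 at 2310.1 ± 263.7 and 2493.6 ± 100.6 CPM and Ctsd at 2054.1 ± 186.0 and 1991.9 ± 234.0 CPM (SD, n = 5 each), with adjusted p-values of 0.37, 0.55 and 0.87.

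Ligands that maintain or attract macrophages were compared beside their receptors. Of 12 growth factor, chemokine and receptor genes, 9 were tested and 1 was called by each of edgeR, DESeq2 and limma-voom. Over all genes these methods called 2.71%, 4.99% and 2.84%. Cx3cl1, fractalkine, the ligand of CX3CR1, was 5.36, 5.08, 3.73, 5.36 and 6.85 CPM in control and 8.22, 8.78, 10.3, 9.14 and 7.75 CPM in Stat5Adipoq BAT. All Stat5Adipoq values lay above all controls. Cx3cl1 rose by 0.73 ± 0.15 on the log2 scale (standard error; adjusted p = 0.021), while the fold change of its receptor gene Cx3cr1 was -0.03. The call of Cx3cl1 was lost in edgeR when control replicate 2 or 4 or Stat5Adipoq replicate 3 or 4 was left out (adjusted p 0.052 to 0.064) and with a replicate block (adjusted p = 0.083). Its log2 fold change was 0.67 to 0.74 in these fits, and over all alternatives its adjusted p ran from 0.00046 to 0.13. Csf1, the main ligand of the CSF1 receptor, was 13.7 ± 2.25 CPM in control and 15.6 ± 0.889 CPM in Stat5Adipoq libraries (SD, n = 5 each; log2 fold change 0.19, adjusted p = 0.48). Il34, its other ligand, was 5.15 ± 1.22 and 4.39 ± 1.08 CPM (SD, n = 5 each; log2 fold change -0.25, adjusted p = 0.63). Csf2rb, a receptor chain shared by GM-CSF, IL-3 and IL-5, was 18.4 ± 3.47 and 14.4 ± 1.30 CPM (SD, n = 5 each; adjusted p = 0.20), and Flt3l, a growth factor of dendritic cells, was 8.44 ± 1.04 and 8.06 ± 1.07 CPM (SD, n = 5 each; adjusted p = 0.85).

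**Figure D4:**
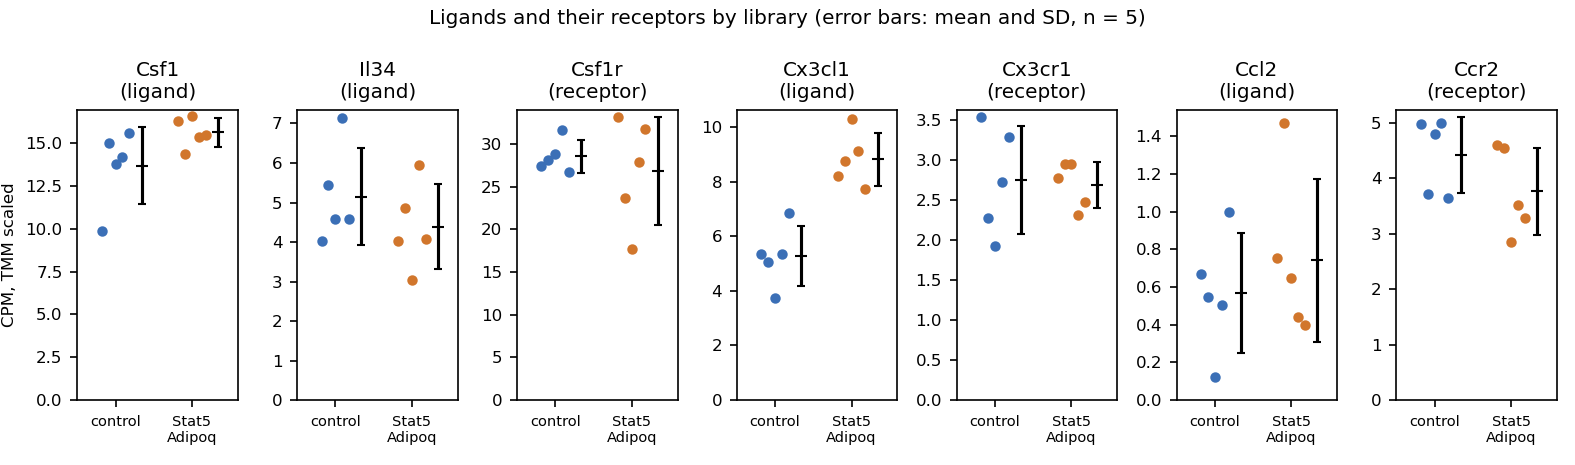
CPM by library of 3 receptor genes and the genes of their ligands, in 5 control and 5 Stat5Adipoq libraries; black marks give the mean and SD, and each axis starts at 0. Cx3cl1 is higher in all Stat5Adipoq libraries (7.75 to 10.3 CPM against 3.73 to 6.85 CPM), and for the other 6 genes the genotypes overlap.

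Resident, inflammatory and antigen-presenting members were also set beside each other in each library, as the median over a class of log2 CPM minus the mean of the gene. The resident class was at -0.22, 0.19, -0.02, 0.51 and 0.02 in control and at 0.21, 0.13, -0.89, 0.01 and 0.03 in Stat5Adipoq replicates 1 to 5. The inflammatory class was at 0.23, -0.09, -0.04, 0.32 and 0.08 in control and at 0.12, 0.05, -0.27, -0.14 and -0.15 in Stat5Adipoq BAT. The MHC class II class was at 0.34, -0.06, -0.17, 0.22 and -0.05 in control and at -0.15, 0.10, -0.18, -0.10 and -0.03 in Stat5Adipoq BAT. Group means in control and Stat5Adipoq BAT were 0.09 ± 0.27 and -0.10 ± 0.45 for resident, 0.10 ± 0.18 and -0.08 ± 0.16 for inflammatory and 0.06 ± 0.21 and -0.07 ± 0.11 for MHC class II genes (SD, n = 5 each), and the genotypes overlapped in each class. Control replicate 4 was high in all 3 classes, whereas control replicate 1 was highest for MHC class II and lowest among controls for resident genes. Stat5Adipoq replicate 3 was the lowest library for each of the 3 classes, by the widest margin for resident genes.

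**Figure D5:**
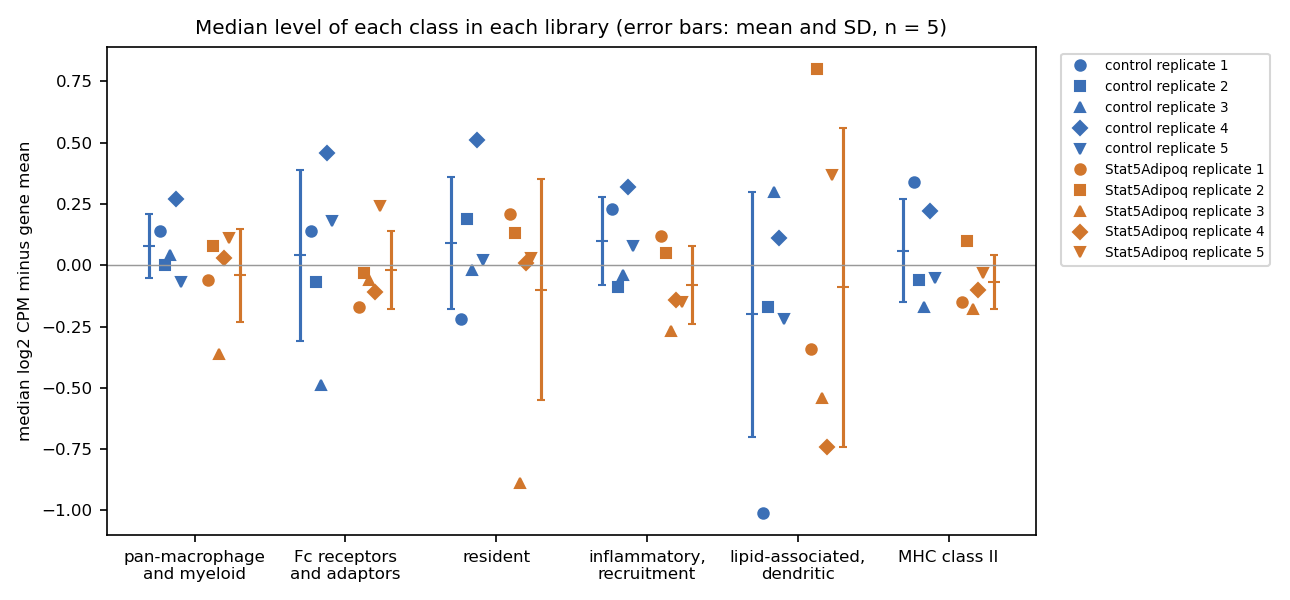
Median over the tested members of each class of log2 CPM minus the mean of the gene, for each library; error bars give the mean and SD of 5 libraries. The genotypes overlap in all 6 classes, and Stat5Adipoq replicate 3 lies at -0.89 for resident genes while the other 4 Stat5Adipoq libraries lie between 0.01 and 0.21.

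Markers of other cells that express MHC class II or share members with macrophages were also compared. The summed level of 8 B cell genes with a row was 3.01 to 4.36 CPM in control and 3.46 to 5.11 CPM in Stat5Adipoq libraries, led by Cd79a, Cd79b and Cd22. The summed level of 9 T and NK cell genes was 4.17 to 11.9 and 2.08 to 5.64 CPM, led by Cd4, Lck and Nkg7, and it was highest in control replicate 1, the library in which the class II chain genes were highest. All 5 tested T and NK cell genes had fold changes below 0 (median -0.81), on means of 5.0 (Cd3e) to 18.7 (Cd4) counts. None was called by edgeR, DESeq2 or limma-voom, and 1 (Cd4) had an unadjusted p-value below 0.05 (15.2% of all genes). Without control replicate 1 only 2 T and NK cell genes passed the filter, both below 0 (median -0.57), so the 5 rest in part on that library. Dendritic cell genes summed to 19.5 to 24.8 and 19.4 to 23.6 CPM, mostly Zbtb46, with Clec9a and Cd209a at 2.13 and 0.976 CPM on average in control BAT. The sum therefore followed Zbtb46 (log2 fold change -0.00), whereas Clec9a and Cd209a had values of -0.43 and -0.75 (adjusted p = 0.50 and 0.28). Of the 5 tested genes of the list, 4 lay below 0. Genes of neutrophils and mast cells, led by Cpa3, Csf3r and Mcpt4, summed to 5.66 to 15.1 and 6.86 to 14.0 CPM, and Mpo was at 0 in all libraries. No B cell, dendritic cell, neutrophil or mast cell gene was called by edgeR, DESeq2 or limma-voom. Each of these lists had 1 gene at an unadjusted p-value below 0.05, against 15.2% of all genes. The part of these cells in the levels of the members was not tested.

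Control replicate 3 differed from the other libraries in genes of muscle and liver. The summed level of 10 skeletal muscle genes, led by Myh4, Acta1 and Ttn, was 4087.7 CPM there. It was at most 346.3 CPM in the other controls and at most 73.0 CPM in Stat5Adipoq libraries. Of these 10, edgeR and limma-voom called none, DESeq2 called 4, and 9 had an unadjusted p-value below 0.05 in edgeR. Of all genes, edgeR called 2.71%, limma-voom 2.84% and DESeq2 4.99%, and 15.2% had an unadjusted p-value below 0.05 in edgeR. The summed level of 10 liver genes was 62.6 to 282.1 CPM in control, highest in control replicate 3, and 31.5 to 85.6 CPM in Stat5Adipoq BAT. Of the 9 tested liver genes, edgeR, DESeq2 and limma-voom each called 2, Cyp2e1 and Apoc3, both lower in Stat5Adipoq BAT. All 9 had fold changes below 0 (50.8% of all genes), and 4 had an unadjusted p-value below 0.05. Cyp2e1 was 58.7 to 188.2 CPM in control, highest in control replicate 4, and 23.7 to 82.0 CPM in Stat5Adipoq libraries. It did not follow Alb, which was 38.7 CPM in control replicate 3, 0.152 to 0.67 CPM in the other controls and 0.0923 to 1.6 CPM in Stat5Adipoq libraries. The tissue that these transcripts came from was not tested. In edgeR with 1 library left out, Cyp2e1 was called only without control replicate 5 or Stat5Adipoq replicate 1, and Apoc3 lost its call without Stat5Adipoq replicate 3 or 5. Over all alternatives the adjusted p ran from 0.0042 to 0.20 for Cyp2e1 and from 0.00019 to 0.077 for Apoc3. Without control replicate 3, 29 of 35 tested members lay below 0 (median -0.19), and no member was called. Brown adipocyte genes, led by Ucp1, Fabp4 and Cidea, and endothelial and fibroblast genes, led by Col3a1, Col1a2 and Kdr, had overlapping summed levels. None of them was called by edgeR, DESeq2 or limma-voom. Each list had 1 gene at an unadjusted p-value below 0.05, among 9 and 10 tested genes, against 15.2% of all genes.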

How the data were processed

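The authors aligned reads of 50 bases from stranded mRNA libraries to GRCm38 with STAR 2.5.0b and counted them over exons with featureCounts 1.5.0-p1, as the methods and the submitters' processing notes state. They deposited raw counts per gene, which are the values used here. Their tables of the comparison hold normalised means, fold changes and p-values from DESeq2 1.16.1, of which only the pairing of gene symbols with identifiers was used. Samples were grouped by the labels, and no pair of libraries differed by sampling noise alone. The methods describe 5 replicates of each genotype without stating that each is a separate mouse, so p-values measure only the spread between these samples, which may be technical.

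The members and gene lists were chosen with earlier results of these data known. Genes with a row sum above 45 after division by DESeq2 size factors were kept and compared by edgeR 4.0.16 (glmQLFit and glmQLFTest, TMM, no covariate). Exact permutation tests used log2 CPM with a prior count of 2 over all 252 assignments, which allow no p below 0.0079. All members were named, and of each other list the called genes and up to 3 with the highest mean CPM. A few other genes, among them Ifi30, H2-DMb2, Ctsl, Cd63, Il34 and Csf2rb, were named after their values were seen, and 2 genes left out of the other lists are not reported here. Alternatives were DESeq2 1.42.0, limma-voom (limma 3.58.1), DESeq2 size factors, library size only, no filter, a mean of at least 50 counts, a replicate block, a prior count of 0.5 and leaving out each library, beside 2 settings without a pair of libraries that were chosen after the data were seen. On simulated counts of 13568 genes with 200 changed by a log2 value of 1, edgeR recovered 95% and 3.06% of its calls were false. DESeq2 recovered 95.5% and 9.48% of its calls were false. The log2 fold changes of the tested members ran from -0.8 to 0.4, and recovery of changes this small was not tested. The changed genes were drawn only from genes with a mean above 50 counts, so the 95% cannot be applied to members with fewer counts. Gene positions and promoters are those of RefSeq for GRCm38. Transcript lengths are those of the longest protein-coding GENCODE transcript that is linked to a RefSeq mRNA.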

Additional observations from a re-analysis of the deposited data

Results flagged for a closer look

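In 94 groups of 5 libraries, the highest or lowest value was examined for a gap to the nearest value that was wide against the range of the group. Such a gap was found in 8 groups, where about 1 in 20, or 4.7, are found by chance. Mrc1 was 28.1 CPM in control replicate 4 and 17.4 to 19.1 CPM in the other controls. Control replicate 1 had 4.12 CPM of Itgax and the other controls 0.962 to 1.83 CPM. For the same gene Stat5Adipoq replicate 2 had 2.12 CPM and its group otherwise 0.399 to 0.881 CPM. Fcgr1 and Tyrobp were far above the rest in the same library, Stat5Adipoq replicate 5, with 2.16 CPM against 1.34 to 1.57 CPM for Fcgr1 and 6.63 CPM against 4.25 to 4.62 CPM for Tyrobp. Laptm5 was 9.69 CPM in Stat5Adipoq replicate 3 and 13.3 to 14.1 CPM in the other Stat5Adipoq libraries. The median level of the resident class was -0.89 in that same library and 0.01 to 0.21 in the others. Stat5a itself was 20.7 CPM in Stat5Adipoq replicate 1 and 15.8 to 16.6 CPM in the other Stat5Adipoq libraries.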

How the results depend on the processing

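No member was called in any of 656 refits over 19 alternatives, with a smallest adjusted p of 0.088, and the exact permutation test with a prior count of 0.5 again found 1 member below 0.05. Over all genes, 660 were called by DESeq2, and leaving out libraries gave 108 to 443. In the 5 further macrophage lists, edgeR called 2 genes, DESeq2 4 and the fits without libraries 0 to 5. These lists had 20, 16, 11, 16 and 9 tested genes, the last including the member Ccl2. Of all genes, edgeR called 2.71% and DESeq2 4.99%, so the calls in the lists were near these shares. The 5 without control replicate 3 were Apoe, Csf2rb, Cx3cl1, H2-DMb2 and Lgals3. With genes averaging at least 50 counts, a construction that leaves fewer genes, the median of the inflammatory class was -0.33. That of the lipid-associated and dendritic class ranged from -0.80 to 0.23 without libraries. The replicate numbers gave no sign of pairing the samples, as correlations of deviations between libraries of the same number ran from -0.23 to 0.09. With 5 libraries of each genotype these correlations cannot exclude a pairing. With a replicate block, 273 of all genes and 1 gene of the further lists (Lgals3) were called, and the signs of Fcer1g (0.01), Stab1 (0.00) and Zbtb46 (0.01) changed. With limma-voom, Il1b was at -0.20, and with scaling by library size only, Cd22 was at -0.01. The sign of 21 members changed in at least 1 refit, and the cause was not tested.

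When libraries were left out, log2 fold changes ranged from -0.04 to 0.22 for Cd68, -0.18 to 0.07 for Csf1r, -0.26 to 0.07 for Mrc1, -0.09 to 0.14 for Fcgr1, -0.31 to 0.04 for Fcgr3, -0.13 to 0.15 for Fcer1g and -0.27 to 0.01 for Tyrobp. They ranged from -0.05 to 0.44 for Aif1, -0.06 to 0.08 for Lyz2, -0.02 to 0.28 for Ctss, -0.11 to 0.09 for Spi1, -0.15 to 0.07 for Cx3cr1, -0.04 to 0.68 for Ccl2, -0.17 to 0.44 for Il1b and -0.01 to 0.41 for Trem2. The ranges were -0.24 to 0.65 for Gpnmb, -0.07 to 0.13 for Tlr2, -0.24 to 0.09 for Tlr4, -0.38 to 0.25 for Timd4, -0.22 to 0.17 for Folr2 and -0.09 to 0.06 for H2-Eb1. Among genes of the other lists they were -0.04 to 0.06 for Stab1, -0.21 to 0.05 for Gas6, -0.07 to 0.19 for Nos2, -0.15 to 0.30 for Tnfaip3, -0.17 to 0.07 for Nfkbia, -0.13 to 0.00 for Flt3l, -0.15 to 0.26 for Cd22, -0.07 to 0.05 for Zbtb46, -0.18 to 0.14 for Cpa3, -0.40 to 0.06 for Col1a2 and -0.37 to 0.02 for Il34. The liver genes Alb and Apoa2 ranged from -4.29 to 1.14 and from -1.60 to 0.19.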
